A study of Mus musculus with 12 samples.

Results

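The genes described here encode the collagens, the laminin chains and the integrins, together with fibronectin, both nidogens, perlecan and dystroglycan, in the posterior neural tube of CD1 mouse embryos at embryonic day 9.5. Members were taken by symbol: every gene named Col, Lam or Itg in the pattern of these families, plus Fn1, Nid1, Nid2, Hspg2 and Dag1. This gave 82 of the 18193 genes to which the array's annotation assigns a probe set of their own, namely 42 collagens, 10 laminin chains, 25 integrins or integrin-like genes and the 5 other genes. Where a gene had several probe sets, the one with the highest mean signal stood for it. The neural tube was cut into 6 pieces, called parts 1 to 6, and each part was measured on 2 arrays, replicate 1 and replicate 2. The design text names 2 embryos, so each replicate was taken to be 1 animal. Embryos had been exposed to pancreatin, a pancreatic enzyme mixture, at 2 mg per ml for 1 min, and needles were used to separate the tube from its neighbours. All parts are of the same strain, stage and treatment, and the labels do not say which number lies at the tail end.

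Collagens, laminins, nidogens and perlecan are secreted proteins that build the matrix around cells, and integrins are the alpha-beta receptor pairs through which cells hold on to it. A basement membrane, the thin sheet under every epithelium and around the neural tube, is made of a laminin network and a collagen IV network that nidogens and perlecan link together. Fibronectin forms fibrils in the loose matrix between the neural tube, the presomitic mesoderm and the surface ectoderm, while fibrillar collagens such as types I and III belong to mesenchyme. Integrins that contain Itga3 or Itga6 bind laminin, those with Itga5, Itga8 or Itgav bind proteins that carry the RGD peptide, such as fibronectin, and dystroglycan binds laminin outside the integrin family.

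Signals are linear array intensities with the same trimmed mean on every array, and the median signal of an array lay between 16.7 and 19.1. Signals far below that median cannot be told from background. A gene was tested when its probe set exceeded the median of the array on at least 2 of the 12 arrays, which held for 12089 genes. In every pair of values given for a part, the first is from replicate 2 and the second from replicate 1. Markers of neural progenitors, the labelled tissue, were measured in all parts, and 8 of 10 rose along the part number. By the slope test described below, 5.66% of all genes tested rose and 7.08% fell. Their summed signal was 6969 and 6702 in part 6 and 1501 and 1489 in part 1. Markers of presomitic mesoderm and surface ectoderm had their highest sums in parts 1 and 2. The sum of the presomitic mesoderm markers was 4244 and 6015 in part 1, 2242 and 4168 in part 2 and between 365 and 703 in parts 3 to 6, and 4 of its 8 tested genes fell. Of 9 tested surface ectoderm markers 7 fell, with sums of 499.8 and 1386 in part 1 and 280.0 to 840.1 in the other parts. Of 4 tested markers of lateral plate and mesenchyme, Twist2 and Pdgfrb fell, and the sum ranged from 229 to 535 in parts 3 to 6, with 407 and 791 in part 2. It was 238 and 271 in part 6 and 415 and 799 in part 1. Somite markers summed to 619 in replicate 1 of part 2 and to 47.7 to 205 on the other arrays, and Tcf15 was the single one of 4 tested that fell. Endothelial markers summed to 67.2 to 138 and gut markers to 22.1 to 144 over the 12 arrays, and Pecam1, Cdh5, Tek and Tie1 were too dim to be tested. Of 9 tested neural crest markers 2 rose, of 7 blood markers Lmo2 fell, and of 3 notochord markers Foxa2 rose and Krt8 fell. Over the 12 arrays the blood markers summed to 79.4 to 3483. The notochord markers summed to 99.5 to 798, with the highest sum in replicate 1 of part 2. The part that these tissues play in the results below was not tested. In pieces of tissue, fewer cells of a type and less RNA per cell cannot be told apart.

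Among the members, 50 were tested, namely 28 collagens, 6 laminin chains, 11 integrins and all 5 of the others. A slope along the part number, fitted to log2 signals, was called for 14 of the 50, or 28.0%, against 12.7% of all 12089 genes (limma, Benjamini-Hochberg adjusted p under 0.05). Col18a1, Col2a1, Itga6 and Itga8 rose, 4 of 50 where 5.66% of all genes rose. Col13a1, Col3a1, Col1a2, Itga3, Col26a1, Lamb1, Itgb5, Col6a1, Col1a1 and Col6a3 fell, 10 of 50 where 7.08% of all genes fell. The median slope of the 50 was -0.078 log2 per part, against -0.0073 over all genes tested. Slopes are on the scale of log2(signal + 4.43), which understates the change of dim genes. Among these 14, Col1a1, Col3a1 and Col26a1 were above the array median on fewer than 6 arrays, all of them of parts 1 to 3, where they are high. These 3 passed the filter through those parts. Col6a1 was above the array median only on arrays of parts 1 to 4. The fall of these genes is no support for the count of 10, the count of 14 or the 28.0%. Without replicate 1 of part 1, 9 members were called, of which 5 fell. On leaving out 1 array, the slope test called 1177 to 1542 of all genes, against 1540 with all arrays.

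**Figure D1:**
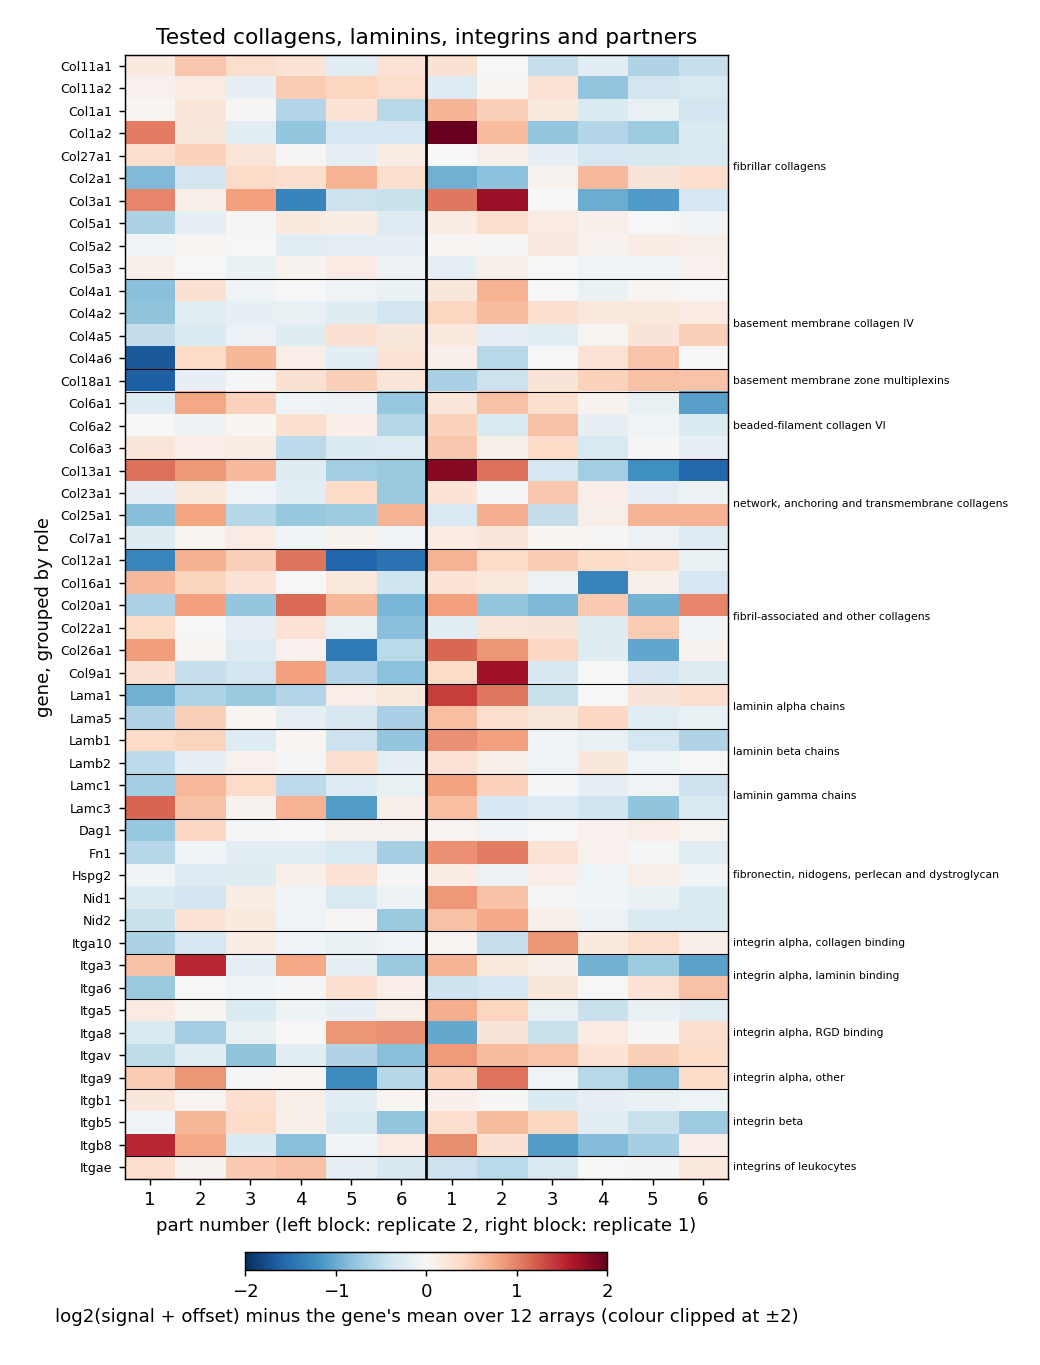
Heat map of the 50 tested members, with arrays of replicate 2 in the left block and of replicate 1 in the right block, each ordered from part 1 to part 6. Colour gives log2(signal + 4.43) minus the mean of the gene over the 12 arrays, red above and blue below it, limited to 2 in either direction. Col13a1 and Lamb1 go red to blue from part 1 to part 6 in both blocks, while Col18a1 and Col2a1 run the other way.

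**Figure D2:**
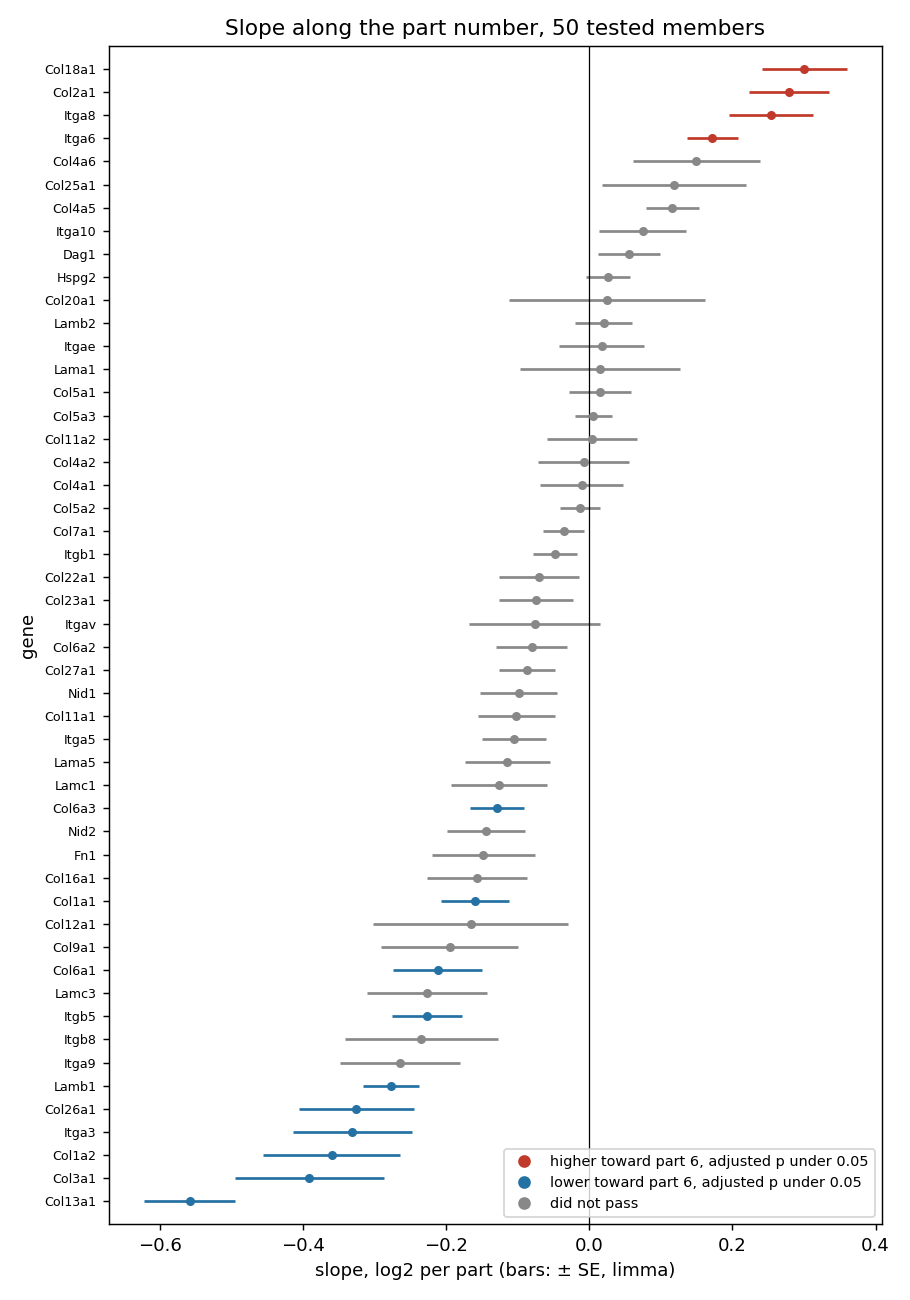
Log2 slope per part for each of the 50 tested members as a point with a bar of 1 standard error, ordered by slope. Slopes ran from -0.56 for Col13a1 to 0.30 for Col18a1; red marks the 4 members that rose, blue the 10 that fell and grey those that did not pass the limma test.

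A second test asked for any difference among the 6 parts, whatever its shape. It called 10 of 50 members, or 20.0%, against 4.91% of all genes, namely Col13a1, Col18a1, Col1a2, Col26a1, Col2a1, Col6a1, Itga9, Itgb5, Itgb8 and Lamb1 (limma F test, adjusted). Itga9 and Itgb8 were called here and not for a slope. Col26a1, Col6a1 and Itga9 passed the filter through parts where they are high, so their calls are no support for the 10 of 50 or the 20.0%. Itga9 was above the array median on the arrays of parts 1 and 2, where it is highest, and on replicate 1 of part 6. The direct comparison of part 6 with part 1 called 8 of 50 members, or 16.0%, against 9.09% of all genes. It put 3, Col18a1, Col2a1 and Itga6, higher in part 6, where 4.17% of all genes were higher, and 5, Col13a1, Col1a2, Lamb1, Col6a1 and Itgb5, lower in part 6, where 4.92% of all genes were lower. The call of Col6a1 is no support for the 5 or the 8 either. The F test called 6 members without either array of part 1 or without replicate 2 of part 5, and 3 without either array of part 6. The F call of Col18a1 failed without any 1 of 11 arrays, all but replicate 1 of part 1 (adjusted p between 0.0662 and 0.108), and that of Col26a1 without any 1 of 9, all but both arrays of part 2 and replicate 2 of part 3 (0.052 to 0.194). The comparison of the ends called 2 members without replicate 1 of part 6 and 4 without replicate 2 of part 6.

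Promoters of Col13a1, Col18a1 and Lamb1 are shown because the slopes of these genes stayed called under each other setting of the processing listed in the methods, without each array in turn and without both arrays of either end part, though not in parts 3 to 6 alone. The sequences are from RefSeq on GRCm38.p6, run from 250 bases before to 50 after the first base of the gene and read 5′ to 3′ on the strand of the gene. The RefSeq table matched 59 of the 82 members and 37 of the 50 tested. Capitals mark letters searched on both strands: GGGCGG, the core of the GC box, found in 35.7% of the 32851 promoters of the table, CCAAT, found in 37.4%, TATAAA, found in 13.6%, and AGGTCA, found in 16.3%. The Col13a1 window is chr10:61979059-61979358 on the minus strand. The table gives 2 starts for Col18a1, and the first is shown, chr10:77166481-77166780 on the minus strand. The Lamb1 window is chr12:31265043-31265342 on the plus strand.
Col13a1: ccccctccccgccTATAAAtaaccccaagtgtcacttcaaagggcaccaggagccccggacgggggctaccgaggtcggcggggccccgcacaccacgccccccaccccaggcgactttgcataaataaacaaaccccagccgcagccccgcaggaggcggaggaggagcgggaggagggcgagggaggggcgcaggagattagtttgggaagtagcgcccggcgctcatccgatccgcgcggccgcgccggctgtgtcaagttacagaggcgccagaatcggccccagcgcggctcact
Col18a1: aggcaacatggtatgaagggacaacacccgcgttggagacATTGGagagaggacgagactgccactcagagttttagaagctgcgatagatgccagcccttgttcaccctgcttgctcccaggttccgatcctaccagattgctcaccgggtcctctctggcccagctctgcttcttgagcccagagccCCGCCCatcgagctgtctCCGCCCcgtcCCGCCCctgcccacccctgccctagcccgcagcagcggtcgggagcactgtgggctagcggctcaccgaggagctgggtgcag
Lamb1: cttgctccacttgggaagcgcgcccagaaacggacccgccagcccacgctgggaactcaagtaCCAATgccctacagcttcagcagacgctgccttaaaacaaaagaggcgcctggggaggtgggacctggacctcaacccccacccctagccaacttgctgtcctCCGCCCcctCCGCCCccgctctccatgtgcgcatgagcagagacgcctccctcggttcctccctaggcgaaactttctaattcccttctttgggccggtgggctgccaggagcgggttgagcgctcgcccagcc
The Col13a1 window held TATAAA once, far upstream of the start, and none of the other 3 motifs. The Col18a1 window held GGGCGG 3 times and CCAAT once, all on the strand opposite the gene, and the Lamb1 window held GGGCGG in 2 places on the opposite strand and CCAAT once on its own strand. These are matches of letters and not measured binding.

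Of 28 tested collagens, 2 rose, 7 fell and 19 did not pass the slope test, where 5.66% of all genes rose and 7.08% fell. The 7 include Col1a1, Col3a1, Col26a1 and Col6a1, which passed the filter through parts where they are high and do not support that count. Col18a1 encodes a basement membrane collagen whose end fragment is endostatin. Its signal was 247 and 491 in part 1, 694 and 574 in part 2, 749.8 and 929.5 in part 3, 953 and 1063 in part 4, 1082 and 1168 in part 5 and 919 and 1154 in part 6. Both arrays of part 1 lay below all others, and parts 4 to 6 were all above parts 1 and 2. The mean was 1037 ± 166 in part 6 and 369 ± 173 in part 1 (SD, n = 2), with a log2 slope of 0.30 ± 0.059 per part (± SE here and below, limma adjusted p = 0.00456) and a difference of 1.55 ± 0.29 log2 between the ends. The call for the ends was lost without replicate 1 of part 6 (adjusted p = 0.0756).

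Col2a1 encodes the fibrillar collagen of cartilage, which embryos also make in and around the notochord and neural tube. Its signal was 67.2 and 63.2 in part 1, 98.2 and 70.4 in part 2, 168 and 134 in part 3, 162 and 203 in part 4, 211 and 154 in part 5 and 159.9 and 163 in part 6. The arrays of parts 1 and 2 lay below all arrays of parts 3 to 6, and within parts 3 to 6 there was no order. Col2a1 averaged 162 ± 2.50 in part 6 and 65.2 ± 2.81 in part 1 (SD, n = 2), with a log2 slope of 0.28 ± 0.055 per part (limma adjusted p = 0.00459) and a difference of 1.25 ± 0.23 between the ends. Leaving out replicate 1 or replicate 2 of part 6 ended the call for the ends (0.053 and 0.0561), replicate 1 of part 1 that of the F test (0.057), and both arrays of part 1 that of the slope (0.121).

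Col13a1 encodes a collagen that spans the cell membrane and takes part in cell adhesion. It had the steepest slope of the 50 tested members, and its signal was 109 and 183 in part 1, 92.1 and 109 in part 2, 79.0 and 36.9 in part 3, 40.3 and 28.5 in part 4, 28.2 and 18.1 in part 5 and 27.3 and 13.3 in part 6. In each replicate the signal was lower in every later part. Parts 5 and 6 lay below all arrays of parts 1 to 4. The log2 slope was -0.56 ± 0.063 per part (limma adjusted p = 7.10e-05), and part 6 was below part 1 by a difference of -2.61 ± 0.41 log2. The F call was lost without replicate 1 of part 1 (adjusted p = 0.0601).

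Of 10 tested fibrillar collagens, Col2a1 rose, 3 fell and 6 did not pass, where 5.66% of all genes rose and 7.08% fell. Of the 3 that fell, Col1a1 and Col3a1 passed the filter through parts where they are high and do not support that count. Col1a2, a chain of collagen I, had a signal of 101 and 228 in part 1, 56.3 and 76.2 in part 2, 40.2 and 25.7 in part 3, 25.9 and 30.2 in part 4, 36.3 and 27.1 in part 5 and 36.9 and 38.0 in part 6. Both arrays of part 1 were the highest of the 12, part 2 came next, and all arrays of parts 3 to 6 lay at 40.2 or below. Its log2 slope was -0.36 ± 0.10 per part (limma adjusted p = 0.0255) and its difference between part 6 and part 1 was -1.90 ± 0.35. The slope call was lost without replicate 1 or replicate 2 of part 1 (adjusted p = 0.0798 and 0.0661), and those for the ends and of the F test without replicate 1 (0.0506 and 0.0516) or replicate 2 of part 6 (0.0627 and 0.0555). The F call also failed without replicate 2 of part 4 (0.0529). Col1a1, its partner chain, was dim, above the array median on 2 of 12 arrays. It lay at 7.13 and 8.71 in part 6 and 13.0 and 22.8 in part 1. The Col1a1 slope of -0.16 ± 0.048 (limma adjusted p = 0.0432) was close to the threshold and failed on leaving out any of 9 single arrays (adjusted p between 0.0536 and 0.143), namely both arrays of parts 2, 3 and 6 and replicate 1 of parts 1, 4 and 5. Col3a1, the collagen III chain, was above the median on 3 arrays, with a signal of 19.8 and 21.1 in part 1, 8.88 and 35.9 in part 2, 17.4 and 7.78 in part 3, 0.506 and 1.75 in part 4, 4.77 and 1.21 in part 5 and 4.61 and 5.27 in part 6. The highest value was in replicate 1 of part 2, the array that also had the highest somite markers, and parts 4 to 6 were all under 6. Its slope was -0.39 ± 0.10 (limma adjusted p = 0.0253), lost without replicate 1 or 2 of part 1 (0.0688 and 0.0585) and without replicate 1 of part 5 (0.0506).

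Collagen VI forms beaded filaments from chains that assemble together. The Col6a1 signal was 14.4 and 22.2 in part 1, 34.2 and 29.4 in part 2, 26.5 and 23.6 in part 3, 16.8 and 19.3 in part 4, 16.5 and 15.8 in part 5 and 8.85 and 6.21 in part 6. It was highest in part 2 and lowest in part 6, with part 1 between them, and the arrays of part 6 overlapped no other array. Besides a log2 slope of -0.21 ± 0.062 per part (limma adjusted p = 0.0403), Col6a1 was the 1 member of 50 called for a difference between parts 2 to 5 and the 2 end parts, where 0.802% of all genes were called. With the replicate number as a block, 2 members, Col6a1 and Itgb8, were called. Parts 2 to 5 were above the ends by 0.70 ± 0.13 log2 (adjusted p = 0.0419), and part 6 was -0.91 ± 0.21 log2 against part 1. These calls of a dim gene were not stable. The slope call failed without any 1 of 9 arrays of parts 2 to 6 other than replicate 2 of part 3 (adjusted p between 0.0502 and 0.143), the call for the inner parts without any array but replicate 1 of part 1 (0.0657 to 0.181), that for the ends without replicate 1 of part 1 (0.0694), and those for the ends and of the F test without replicate 1 (0.152 and 0.0948) or replicate 2 of part 6 (0.058 and 0.0534). Col6a3 fell by 0.13 ± 0.038 log2 per part (limma adjusted p = 0.0413), with 15.4 and 16.7 in part 6 and 23.6 and 30.0 in part 1. That call failed without any 1 of 9 arrays (adjusted p between 0.0529 and 0.134), namely both arrays of parts 1, 2 and 6, replicate 2 of parts 3 and 5 and replicate 1 of part 4. Col6a2 lay between 24.4 and 59.4 and had a slope of -0.081 ± 0.050 (adjusted p = 0.333).

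Col26a1, a small collagen found first in mouse testis and ovary, had a signal of 31.1 and 39.7 in part 1, 16.2 and 32.1 in part 2, 12.3 and 21.9 in part 3, 16.7 and 12.4 in part 4, 2.99 and 5.29 in part 5 and 9.18 and 16.5 in part 6. It was above the array median on 4 of 12 arrays. Part 1 held the highest mean and part 5 the lowest. The log2 slope was -0.33 ± 0.080 per part (limma adjusted p = 0.0162), lost without replicate 1 of part 1 (adjusted p = 0.0635).

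**Figure D3:**
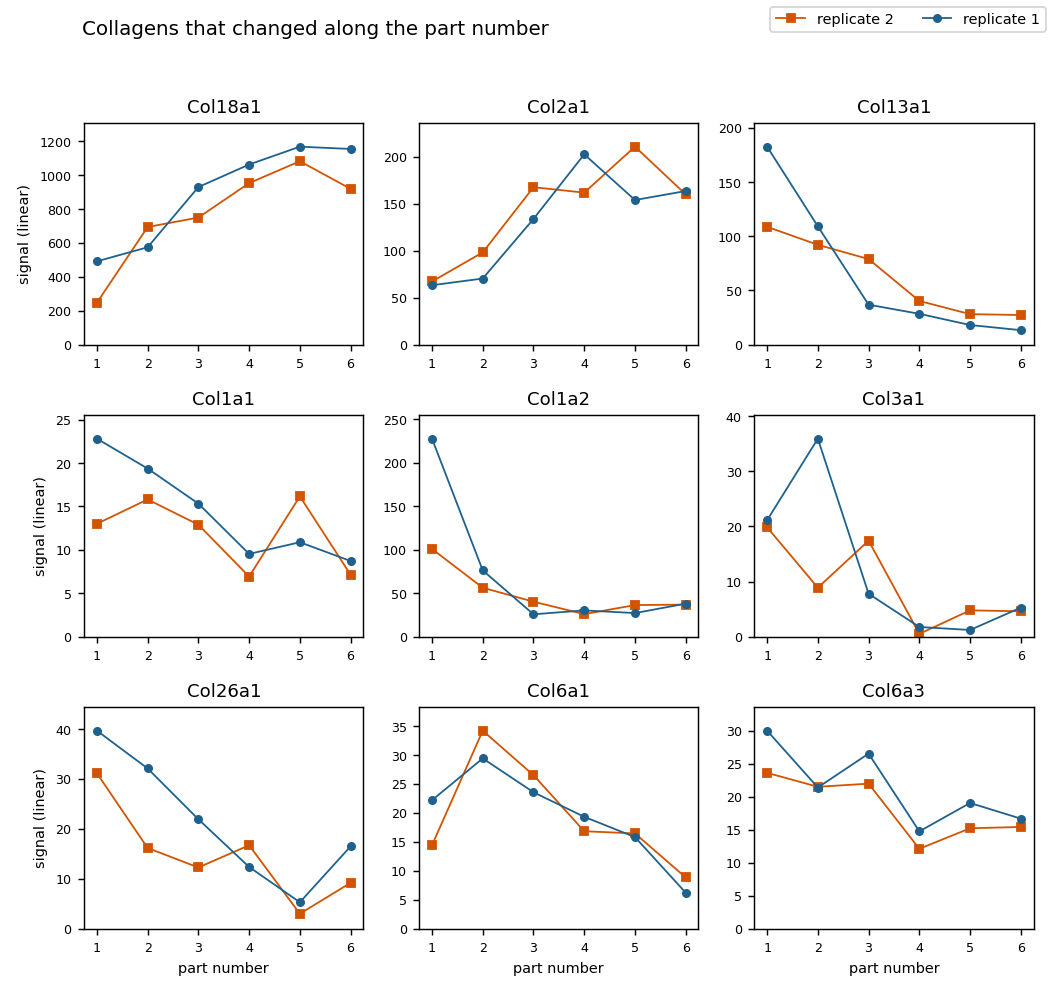
Signal on a linear axis against part number for the 9 collagens called for a slope, with replicate 2 as squares and replicate 1 as circles. Col13a1 and Col1a2 lie highest in part 1, whereas Col18a1 and Col2a1 lie lowest there.

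Collagen IV, the collagen network of basement membranes, had no member called for a slope. Col4a1 and Col4a2 encode the chains of the most widespread collagen IV and are read in opposite directions from 1 shared start region on chromosome 8. The Col4a1 signal was 209 and 445 in part 1, 468 and 616 in part 2, 356 and 379 in part 3, 376 and 346 in part 4, 362 and 388 in part 5 and 344 and 381 in part 6. Its lowest value was in replicate 2 of part 1, its highest values were in part 2, and parts 3 to 6 lay between 344 and 388. The Col4a2 signal was 61.5 and 151 in part 1, 95.4 and 172 in part 2, 98.5 and 139 in part 3, 99.6 and 129 in part 4, 93.0 and 129 in part 5 and 85.1 and 125 in part 6. Replicate 2 was below replicate 1 in all 6 parts for Col4a2. Slopes were -0.010 ± 0.058 log2 per part for Col4a1 and -0.0075 ± 0.064 for Col4a2 (limma adjusted p = 0.935 and 0.961), and the replicate difference of Col4a2, -0.65 ± 0.13 log2, had an adjusted p of 0.0507. The starts lie 21 bases apart, so the pair of promoters is shown. The Col4a1 window is chr8:11312777-11313076 on the minus strand and the Col4a2 window is chr8:11312555-11312854 on the plus strand, with capitals as above.
Col4a1: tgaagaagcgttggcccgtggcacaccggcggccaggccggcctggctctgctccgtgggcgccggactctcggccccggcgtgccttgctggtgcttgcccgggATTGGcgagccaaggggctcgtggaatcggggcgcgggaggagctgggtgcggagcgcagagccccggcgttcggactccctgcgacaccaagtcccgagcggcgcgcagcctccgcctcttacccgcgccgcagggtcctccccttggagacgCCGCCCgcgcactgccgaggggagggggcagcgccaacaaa
Col4a2: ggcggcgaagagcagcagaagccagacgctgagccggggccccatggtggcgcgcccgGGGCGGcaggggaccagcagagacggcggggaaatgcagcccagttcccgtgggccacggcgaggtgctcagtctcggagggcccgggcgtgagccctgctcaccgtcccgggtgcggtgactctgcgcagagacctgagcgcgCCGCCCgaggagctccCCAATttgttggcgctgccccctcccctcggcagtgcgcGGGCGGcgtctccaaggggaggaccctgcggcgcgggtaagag
The windows share 78 bases, and these hold 1 GGGCGG, which reads on the strand of Col4a2. The Col4a2 window held 2 more GGGCGG matches and a CCAAT, and the Col4a1 window held a CCAAT on the opposite strand.

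Col4a5 and Col4a6 are the other collagen IV pair that is read in opposite directions, on the X chromosome, with starts 1343 bases apart. The Col4a5 signal was 81.4 and 134 in part 1, 94.9 and 102 in part 2, 106 and 98.8 in part 3, 97.3 and 119.7 in part 4, 144 and 139 in part 5 and 137 and 162 in part 6. Parts 5 and 6 were the highest by mean, and replicate 1 of part 1 came close to them. Its slope of 0.12 ± 0.037 log2 per part did not pass (limma adjusted p = 0.0569) and passed without replicate 1 of part 1 (0.00348) or replicate 2 of part 4 (0.0463), and with the replicate number as a block (0.0391). Another Col4a5 probe set, above the array median on 12 arrays, had a slope of -0.041. It gave 35.4 and 28.4 in part 1 and 28.5 and 27.5 in part 6. The Col4a6 signal lay between 5.60 and 46.1, with 34.3 and 27.5 in part 6 and 5.60 and 30.0 in part 1, and a slope of 0.15 ± 0.089 (adjusted p = 0.315). Another Col4a6 probe set, above the median on 11 arrays, had a slope of -0.0081. Col4a3 and Col4a4 exceeded the array median on 0 arrays.

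The remaining tested collagens had slopes between -0.20 and 0.12 log2 per part with adjusted p of 0.173 or more. They were Col5a1, Col5a2, Col5a3, Col7a1, Col9a1, Col11a1, Col11a2, Col12a1, Col16a1, Col20a1, Col22a1, Col23a1, Col25a1 and Col27a1. Col5a2 is a chain of collagen V, the collagen that starts and limits fibrils. It lay between 145 and 191 over the 12 arrays with no order by part. Col5a1 and Col5a3, its other chains, lay between 72.3 and 144 and between 18.5 and 24.998.

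Of 6 tested laminin chains, Lamb1 fell and 5 did not pass the slope test, where 7.08% of all genes fell and 5.66% rose. The genes of laminin-111 and laminin-511 were the tested ones, apart from Lamb2 and Lamc3. Lamb1 encodes the beta chain that both trimers share, and its signal was 796 and 1136 in part 1, 825 and 1070.4 in part 2, 505 and 582 in part 3, 619 and 545 in part 4, 449 and 470.4 in part 5 and 351 and 395 in part 6. All arrays of parts 1 and 2 lay above all arrays of parts 3 to 6, and part 6 was lowest. Lamb1 averaged 373 ± 30.9 in part 6 and 966 ± 241 in part 1 (SD, n = 2), with a log2 slope of -0.28 ± 0.039 per part (limma adjusted p = 4.01e-04) and a difference of -1.34 ± 0.22 between the ends. The slope and the difference between the ends were called without each array in turn, and the F call was lost without replicate 2 of part 5 (0.0539) and without replicate 1 or 2 of part 6 (0.0616 and 0.0804).

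Lama1, the alpha chain of laminin-111, is the earliest alpha chain of the embryo, and its signal was 88.8 and 470.0 in part 1, 115 and 372 in part 2, 104 and 129 in part 3, 117 and 176 in part 4, 195 and 212 in part 5 and 206 and 225 in part 6. In replicate 2 it was highest in parts 5 and 6, whereas in replicate 1 it was highest in parts 1 and 2. Within replicate 2 the log2 slope per part was 0.24 and within replicate 1 it was -0.21. The difference of these slopes, 0.44 ± 0.14 for replicate 2 minus replicate 1, had an adjusted p of 0.747 and an unadjusted p of 0.00855 in limma. Over all arrays the slope was 0.015 ± 0.11 (adjusted p = 0.955). Lama5, the alpha chain of laminin-511, had a signal of 45.2 and 109 in part 1, 99.9997 and 91.0 in part 2, 73.1 and 83.2 in part 3, 61.5 and 95.6 in part 4, 56.0 and 60.6 in part 5 and 43.5 and 63.8 in part 6. Apart from replicate 2 of part 1, parts 1 to 4 lay at 61.5 or above and parts 5 and 6 at 63.8 or below. Lamc1, the gamma chain of both trimers, had 44.3 and 132 in part 1, 119 and 104 in part 2, 96.9 and 71.5 in part 3, 49.9 and 65.4 in part 4, 60.8 and 70.2 in part 5 and 66.0 and 54.0 in part 6, with the lowest of the 12 values in replicate 2 of part 1 and the highest in replicate 1 of part 1. Their slopes were -0.11 ± 0.059 for Lama5 (limma adjusted p = 0.242) and -0.13 ± 0.067 for Lamc1 (0.257), and both passed without replicate 2 of part 1 (0.00552 and 0.00769). Lamb2, the beta chain that can stand in for Lamb1, lay between 30.7 and 58.4 with a slope of 0.020 ± 0.040 (adjusted p = 0.807), and the dim Lamc3 had a slope of -0.23 ± 0.084 (0.0991).

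Nidogens link laminin to collagen IV. Nid2 had a signal of 53.1 and 113 in part 1, 89.8 and 129 in part 2, 85.1 and 80.6 in part 3, 69.2 and 68.1 in part 4, 75.2 and 60.1 in part 5 and 42.7 and 60.3 in part 6. The lowest values came from replicate 2 of parts 6 and 1, and the highest from replicate 1 of parts 2 and 1. Nid1 lay between 15.3 and 42.7, with its 2 highest values in replicate 1 of parts 1 and 2. Slopes were -0.14 ± 0.055 for Nid2 (limma adjusted p = 0.108) and -0.10 ± 0.054 for Nid1 (0.274). Fibronectin, Fn1, had a signal of 864 and 2433 in part 1, 1228 and 2632 in part 2, 1104 and 1569 in part 3, 1105 and 1366 in part 4, 1045 and 1246 in part 5 and 807 and 1097 in part 6. Replicate 2 was below replicate 1 in all 6 parts, by the widest margin in parts 1 and 2. Its slope was -0.15 ± 0.072 (adjusted p = 0.215) and its replicate difference -0.68 ± 0.17 log2 (adjusted p = 0.0953). On another, dimmer Fn1 probe set, replicate 2 was below replicate 1 in parts 1, 2 and 4 and above it in parts 3, 5 and 6. In part 3 that probe set gave 105 and 38.4. Without replicate 2 of part 1 the slopes of Nid2 (adjusted p = 0.00216) and Fn1 (0.0213) passed. Perlecan, Hspg2, lay between 118 and 173 and dystroglycan, Dag1, between 403 and 919, with slopes of 0.026 ± 0.031 and 0.055 ± 0.043 (adjusted p = 0.640 and 0.459).

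The 2 arrays of part 1 differed for many of these genes. Replicate 2 of part 1 was below replicate 1 of part 1 in 38 of the 50 tested members (76.0%) and in 56.6% of all genes tested. It was the lowest of the 12 arrays for 13 of 50 members (26.0%), against 21.4% of all genes. Replicate 1 of part 1 was the highest of the 12 for 12 of 50 members (24%), against 21.3% of all genes. These values do not tell which of the 2 arrays is the unusual one. On replicate 2 of part 1 the surface ectoderm markers summed to 499.8, against 1386 in replicate 1 of part 1, and those of presomitic mesoderm to 4244, against 6015. The blood markers summed to 3483 there, against 670.3 in replicate 1. Their part in the result was not tested. Without replicate 2 of part 1, 15 members were called for a slope, with Fn1, Lama5, Lamc1 and Nid2 gained and Col1a2, Col3a1 and Col6a3 lost. Without replicate 1 of part 1, 9 were called, with Col4a5 gained.

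**Figure D4:**
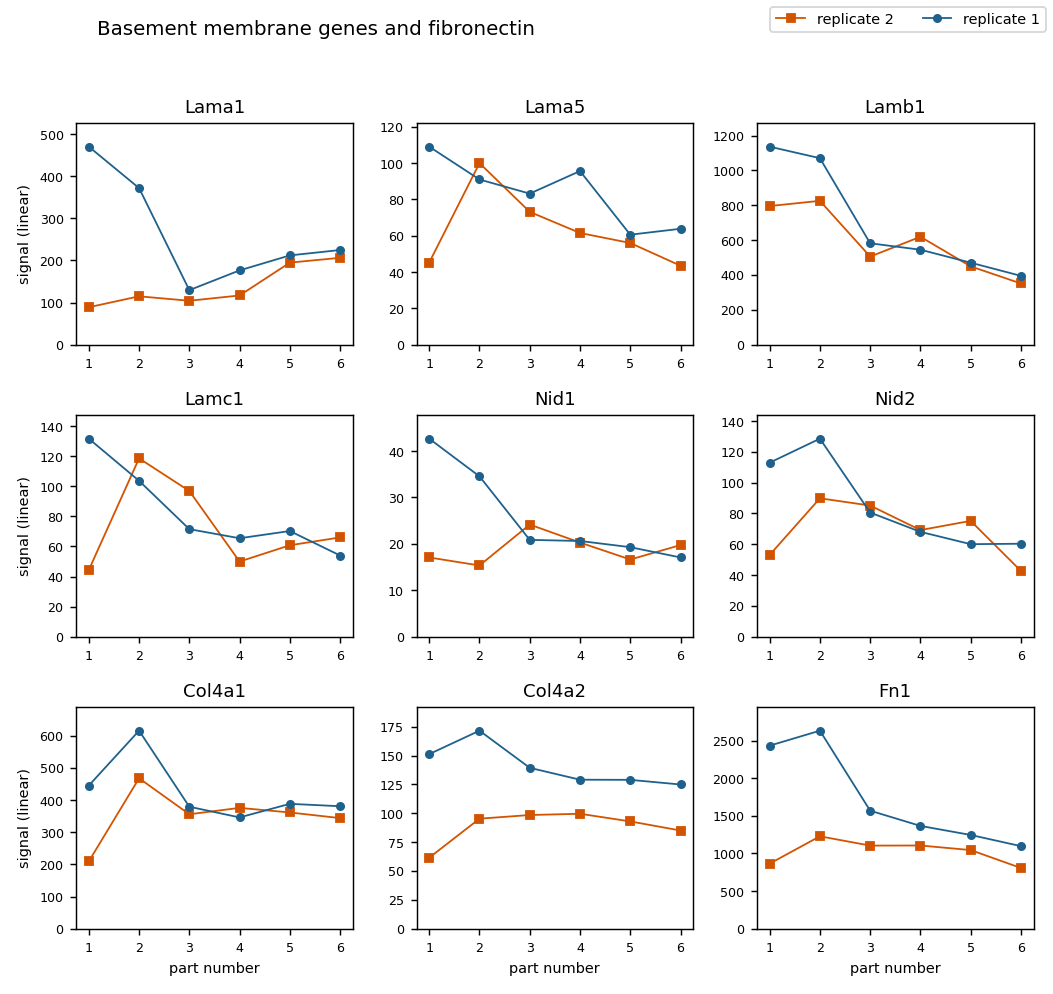
Signal on a linear axis against part number for basement membrane genes and Fn1, with replicate 2 as squares and replicate 1 as circles. The lines of replicate 2 start low in part 1 for Lama1, Lamc1, Col4a1 and Fn1, and Lamb1 falls in both replicates.

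Of 11 tested integrins, 2 rose, 2 fell and 7 did not pass the slope test, where 5.66% of all genes rose and 7.08% fell. Itgb5, a beta subunit that pairs with Itgav and binds vitronectin, had a signal of 410.4 and 529.6 in part 1, 676 and 661 in part 2, 549 and 575 in part 3, 459 and 365 in part 4, 347 and 312 in part 5 and 244 and 255 in part 6. It was highest in part 2, and from there each replicate was lower in every later part, with part 6 below all other arrays. Itgb5 averaged 249.5 ± 8.02 in part 6 and 470.0 ± 84.3 in part 1 (SD, n = 2), with a log2 slope of -0.23 ± 0.049 per part (limma adjusted p = 0.00774) and a difference of -0.89 ± 0.18 between the ends. Without replicate 1 or replicate 2 of part 6 the call for the ends (adjusted p = 0.0717 and 0.109) and the F call (0.0569 and 0.0672) were lost.

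Itgb8 pairs with Itgav too and is known for activating latent TGF-beta. Its signal was 824 and 548 in part 1, 491 and 356 in part 2, 236 and 129.5 in part 3, 159 and 155 in part 4, 275 and 180.0 in part 5 and 320.5 and 313 in part 6. The means formed a trough, highest in part 1, lowest in parts 3 and 4 and intermediate in part 6. The slope did not pass (-0.23 ± 0.11, limma adjusted p = 0.182), whereas the F test among the parts did (adjusted p = 0.0239). Parts 2 to 5 differed from the ends by -1.02 ± 0.20 log2 (adjusted p = 0.0580). With the replicate number as a block, Itgb8 was called for this comparison and for part 6 against part 1. Both calls also came with an offset of 1 median, with the filter at the 75th percentile and with a trend in the spread. Replicate 2 of part 1 (0.0859), replicates 1 and 2 of part 4 (0.067 and 0.0659) and replicates 1 and 2 of part 6 (0.0557 and 0.0593) were each needed for the F call. Itgav, the partner of both, was called between replicates and not along the parts, with 356 and 914 in part 1, 437 and 782 in part 2, 289 and 756 in part 3, 435 and 616 in part 4, 332 and 709.6 in part 5 and 282 and 655 in part 6. Replicate 2 was below replicate 1 in all 6 parts and the ranges of the replicates did not overlap. Itgav was the 1 of 50 members called between replicates, where 1.63% of all genes were called, with a difference of -1.06 ± 0.13 log2 for replicate 2 minus replicate 1 (adjusted p = 0.00634) and a slope of -0.076 ± 0.092 (0.656). With 1 animal per replicate, a difference of animals and one of handling cannot be told apart.

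Both tested laminin-binding alpha subunits changed, in opposite directions. Itga6 had a signal of 90.9 and 116 in part 1, 157 and 123 in part 2, 149 and 182 in part 3, 154 and 155 in part 4, 196 and 191 in part 5 and 171 and 237 in part 6. Part 1 was low and parts 5 and 6 were high, with parts 2 to 4 between and overlapping. It averaged 204 ± 46.7 in part 6 and 103 ± 17.8 in part 1 (SD, n = 2), with a slope of 0.17 ± 0.035 (limma adjusted p = 0.00574) and a difference of 0.94 ± 0.22 between the ends. That difference was not called without replicate 2 of part 1 (0.0924) and without replicate 1 of part 6 (0.167). Itga3 had 48.0 and 51.7 in part 1, 95.5 and 35.8 in part 2, 26.5 and 33.2 in part 3, 55.4 and 13.8 in part 4, 26.6 and 17.0 in part 5 and 16.6 and 12.3 in part 6. Its values scattered between replicates, most in parts 2 and 4, and part 6 was at the low end in both. The slope of Itga3 was -0.33 ± 0.083 (limma adjusted p = 0.0185), lost without replicate 1 of part 6 (0.06).

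Among the RGD-binding alpha subunits, Itga8, a receptor of nephronectin and fibronectin, had a signal of 22.3 and 11.8 in part 1, 16.1 and 35.1 in part 2, 25.4 and 19.8 in part 3, 28.9 and 32.5 in part 4, 56.5 and 29.0 in part 5 and 57.8 and 37.8 in part 6. The 2 highest values came from replicate 2 of parts 5 and 6, and part 1 overlapped parts 2 and 3. Its slope was 0.25 ± 0.059 (limma adjusted p = 0.0116), lost without replicate 1 of part 1 (0.0516). Itga5, the main fibronectin receptor subunit, was dim, between 12.1 and 32.9, with a slope of -0.11 ± 0.045 (adjusted p = 0.151). Itga9, a receptor subunit for tenascin and other ligands, had 21.7 and 20.9 in part 1, 29.5 and 34.6 in part 2, 13.4 and 13.0 in part 3, 14.4 and 8.10 in part 4, 3.21 and 5.71 in part 5 and 7.99 and 19.3 in part 6. It was highest in part 2 and lowest in part 5, and it passed the filter mainly through parts 1 and 2, where it is high. The F test called Itga9 (adjusted p = 0.0351), and the slope of -0.26 ± 0.084 did not pass (0.0561). The F call was lost without any 1 of 8 arrays, namely both arrays of parts 1, 2, 3 and 5 (adjusted p between 0.0703 and 0.142), and the slope passed without replicate 1 of part 6 (0.00675). Itgb1, the beta subunit that pairs with Itga3, Itga5, Itga6, Itga8 and Itga9, lay between 67.3 and 105, with a slope of -0.048 ± 0.031 (adjusted p = 0.369). Itga10 and Itgae had slopes of 0.074 ± 0.061 and 0.017 ± 0.059 (adjusted p = 0.486 and 0.890).

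**Figure D5:**
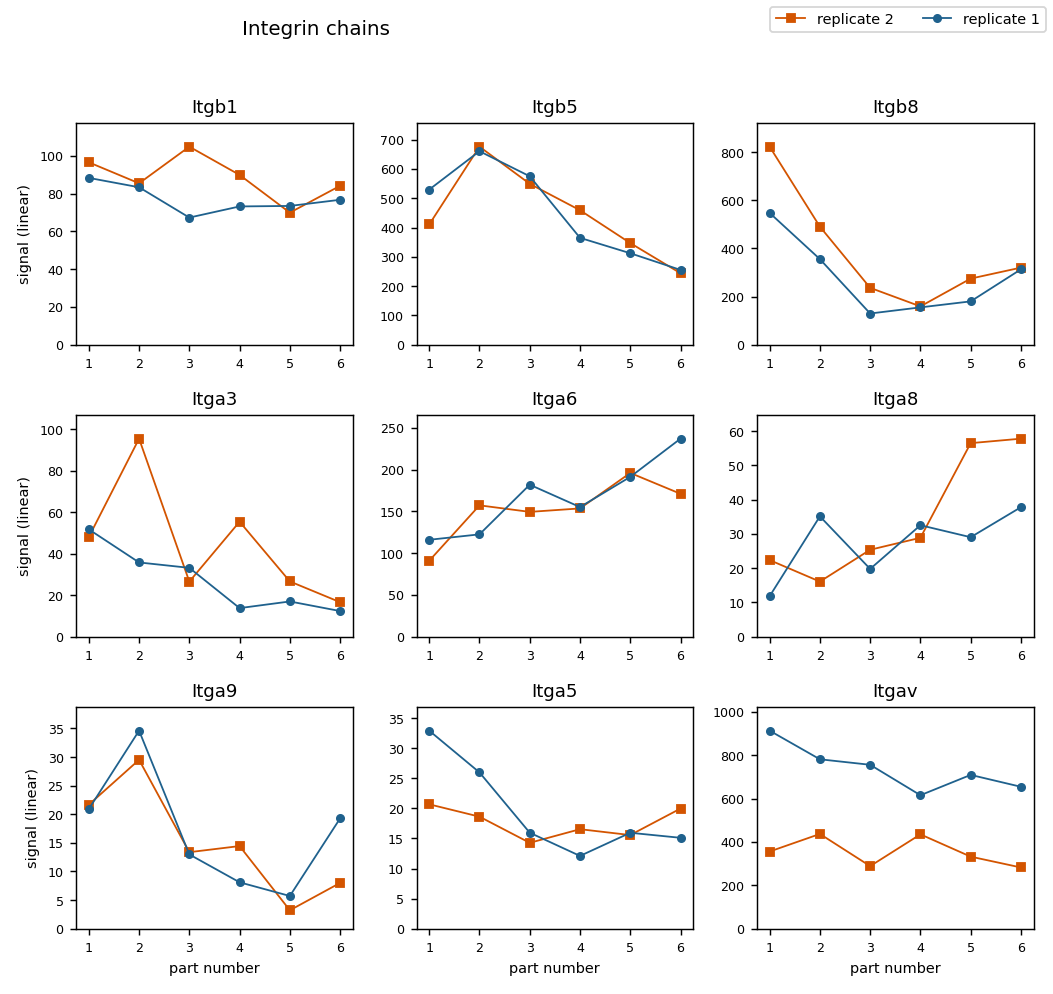
Signal on a linear axis against part number for integrin genes, with replicate 2 as squares and replicate 1 as circles. Itgb5 falls after part 2, Itgb8 is lowest in parts 3 and 4, and the 2 lines of Itgav stay apart at every part.

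Another 32 members were not tested, of which 26 exceeded the array median on 0 arrays and 6 on 1 array. They included Lama2, Lama3, Lama4 and Lamb3, the collagen-binding subunits Itga1 and Itga2, Itga4, Itga7, Itgb3, Itgb4 and Itgb6, and the leukocyte integrins Itgal, Itgam, Itgax, Itgb2 and Itgb7. The highest single signal among these was 28.8 for Itga1 in replicate 2 of part 1. A signal of this size says that the probe set gave little, not that the gene was silent. Of the 50 tested, 27 were above the array median on all 12 arrays. Several members had further probe sets that passed the same filter, 27 probe sets in all, and 22 had a slope of the same sign as the one used, including 8 of 8 that belonged to a member called for its slope.

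No member was called between neighbouring parts by limma, in any of the 5 steps, at an adjusted p under 0.05. At that adjusted threshold the calls over all genes were 0.248%, 0.19%, 0.00827%, 0.00827% and 0.00827%, from the step between parts 1 and 2 onward. At an unadjusted p under 0.05, 6 of 50 members differed between part 2 and part 1, 7 between part 3 and part 2, 3 between part 4 and part 3, 4 between part 5 and part 4 and 3 between part 6 and part 5. The share of all genes at an unadjusted p is not given here, so these member counts have no background to be set against. Without replicate 1 of part 1, Col18a1 and Col4a1 were called between part 2 and part 1. The slopes of the replicates differed for 0 of 50 members and for 0% of all genes after adjustment. At an unadjusted p under 0.05 they differed for 5 members, again with no share of all genes beside it. With 2 arrays per part the steps had less precision than the slope over all 12 arrays.

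Because the summed markers of presomitic mesoderm were highest in parts 1 and 2, the slope was also fitted on parts 3 to 6 alone, a choice made after the data were seen. Of the members, Col6a1 (-0.41 log2 per part), Itgb5 (-0.38) and Lama1 (0.31, limma adjusted p = 0.0388) were called, 3 in all, where 441 genes were called in all. Col6a1 and Itgb5 were also called over all 6 parts. Over the 8 arrays of parts 3 to 6, Col13a1 had a slope of -0.44 (adjusted p = 0.0999), Lamb1 one of -0.19 (0.102) and Col18a1 one of 0.11 (0.496), none of them called. Over all 6 parts their slopes were -0.56 ± 0.063, -0.28 ± 0.039 and 0.30 ± 0.059.

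Genes that process, modify or bind the matrix were counted beside the members. The lists here and below were chosen with earlier results of these data known, so their counts are no independent support. Of 22 tested genes of collagen maturation, 8 fell and 0 rose by the limma slope test, where 7.08% of all genes fell and 5.66% rose, with a median slope of -0.090 log2 per part against -0.0073 over all genes. The fallers were P4ha2, Ppib, Plod1, Plod2, Serpinh1, Bmp1, Pcolce and Pcolce2. Serpinh1, a collagen chaperone, averaged 443 ± 67.7 in part 6 and 959.8 ± 149.8 in part 1 (SD, n = 2), with a slope of -0.23 ± 0.028 (adjusted p = 9.61e-05). Pcolce and Pcolce2, which enhance the trimming of procollagen, had slopes of -0.58 ± 0.083 and -0.32 ± 0.060 (adjusted p = 4.33e-04 and 0.00314), and Bmp1, the protease they assist, had -0.19 ± 0.035 (0.00271). The count was 5 without replicate 2 of part 6.

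Among all genes 7.08% fell and 5.66% rose. Of 19 tested proteases and inhibitors, 7 fell, namely Mmp2, Mmp11, Mmp14, Adam12, Timp1, Timp2 and Reck, 3 rose, namely Adam10, Adamts1 and Timp3, and the median slope was -0.18. Adam12 had the smallest p of these, with a slope of -0.65 ± 0.085 (limma adjusted p = 2.19e-04), followed by Mmp2, Timp2 and Mmp14 at -0.32 ± 0.064, -0.26 ± 0.055 and -0.23 ± 0.053 (0.00479, 0.00685 and 0.0102). Timp2 is known both as an inhibitor and as a partner of Mmp14 in the activation of Mmp2. Without replicate 1 of part 1, 2 or 5 the number that fell was 4, and without replicate 1 of part 6 the number that rose was 0, while it was 1 without replicate 1 of part 1, replicate 2 of part 1 or replicate 2 of part 6. Of 26 tested other matrix proteins, 5 rose and 3 fell, with a median slope of -0.0028. Spon1 and Ptn rose with slopes of 0.75 ± 0.055 and 0.85 ± 0.086 (adjusted p = 1.84e-06 and 2.98e-05), while Emilin1 and Has2, which makes hyaluronan, had -0.38 ± 0.064 and -0.38 ± 0.072 (0.00158 and 0.00320). Without replicate 1 of part 1 or of part 6 the number that rose was 3, and without replicate 2 of part 1 the number that fell was 5.

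Inside the cell, 5 of 22 tested integrin adaptors fell and 2 rose, against 7.08% and 5.66% of all genes, with a median slope of -0.062. Fermt2, a kindlin that activates integrins, Zyx and Actn1 had slopes of -0.19 ± 0.023, -0.31 ± 0.056 and -0.14 ± 0.029 (limma adjusted p = 1.29e-04, 0.00252 and 0.00688), and Kank1 had 0.17 ± 0.034 (0.00606). The number that fell was 3 without replicate 1 of part 1. Around dystroglycan, which itself had no called slope, 4 of 14 tested genes rose and 0 fell, against 5.66% and 7.08% of all genes, with a median of 0.041. Utrn, which ties dystroglycan to actin, averaged 1283 ± 78.0 in part 6 and 278 ± 136 in part 1 (SD, n = 2), with a slope of 0.48 ± 0.042 (adjusted p = 1.01e-05). Dtna, Sgce and Dmd had 0.22 ± 0.052, 0.091 ± 0.024 and 0.19 ± 0.059 (0.0139, 0.0261 and 0.0479), and 2 genes rose without replicate 1 of part 2, replicate 2 of part 5 or either array of part 6. Dmd was lost without any 1 of 11 arrays, all but replicate 2 of part 4 (adjusted p between 0.0523 and 0.148), Dtna without replicate 1 of part 1 (0.0515), and Sgce without replicate 1 of part 2 (0.0521), replicate 2 of part 5 (0.0583) or replicate 1 (0.0683) or 2 (0.0606) of part 6. Of 13 other matrix receptors, the collagen receptor Ddr1 rose by 0.37 ± 0.10 log2 per part (adjusted p = 0.0222) and the laminin receptor Bcam fell by 0.29 ± 0.079 (0.0261). Ddr1 was lost without replicate 1 (0.0634) or replicate 2 (0.0764) of part 1, and Bcam without replicate 1 (0.07) or replicate 2 (0.0586) of part 1, replicate 1 of part 5 (0.0504) or replicate 2 of part 6 (0.0779). When all kept probe sets of a gene were averaged, the limma slope calls of Ddr1 (adjusted p = 0.242) and Sgce (0.211) were lost too. Sdc2 and Sdc4 had slopes of -0.15 ± 0.048 and 0.25 ± 0.094 that did not pass (0.0585 and 0.107).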

How the data were processed

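The authors deposited a linear intensity for each probe set on each array. The submitters' processing notes name MAS5, with version and settings not given in the sources used, and the mean intensity trimmed by 2% at both ends was 100.001 on every array. Labelling used 2 cycles of amplification per the labels' protocols, which shortens copied RNA toward its 3′ end. Of 45101 probe sets, 64 were controls and 34958 had 1 gene symbol in the platform annotation, of which 34754 matched RefSeq by Entrez identifier and took its symbol. A probe set was kept when above its array's median on at least 2 of 12 arrays (21679), and the brightest stood for each gene (12089). The scale was log2(signal + 4.43), an offset of 0.25 times the overall median of 17.7, without further normalization. Fits used limma 3.58.1 in R 4.3.3, with Benjamini-Hochberg adjustment over all 12089 genes at 0.05, and the scripts were tested on simulated data. Slopes were fitted on the part number, the other comparisons from 6 part means, and replicate 2 against replicate 1 with the part as covariate. Deviations of same-numbered arrays from their part means correlated in all 15 pairs of parts (0.183 to 0.335, median 0.234), and the design text names 2 embryos, so a number was read as marking an embryo. The fits reported carry no block for it, and blocked results stand beside the calls that they alter. The members and gene lists were chosen with earlier results of these data known, and named genes of other lists are the 4 with the smallest slope p in each. Alternatives changed the offset, filter, scaling, probe set rule, prior of the spread and replicate block, or left out arrays. Arrays number 2 per part, which limits the precision, and p-values rest on 2 animals.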

Additional observations from a re-analysis of the deposited data

How the results depend on the processing

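Over 74 results for single genes and their alternatives, 1362 of 1618 values kept direction and side of the threshold, 208 lost a call, 29 gained one and 19 changed sign. The slope test over all genes called 1540 in the analysis reported, 903 without both arrays of part 1, 976 without both of part 6 and 441 in parts 3 to 6 alone, and 1177 to 1542 on leaving out 1 array. Of the 14 members called for a slope, counts were 8 with the filter at the 75th percentile, 9 without both arrays of part 1 and 3 in parts 3 to 6, and 9 to 15 on leaving out 1 array. The 4 that rose became 2 without both arrays of part 1 and 1 in parts 3 to 6 (4 to 5 on leaving out 1 array), and the 10 that fell became 4 with the 75th percentile filter and 2 in parts 3 to 6 (5 to 11). On leaving out 1 array the F test called 3 to 10 members, the comparison of the ends 2 to 11, the steps 0 to 2, the inner parts 0 to 4 and the replicates 1 to 2, while the slope difference stayed at 0. The inner parts gave 0 members without a filter and 2 at the 75th percentile. The replicate difference was called for 3 members with an offset of 1 median, 4 with the 75th percentile filter, 2 after quantile normalization, 2 with the mean of all probe sets and 4 with a trend in the spread, and Itgav was called in each.

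With the replicate block, the inner parts called 2 members (Col6a1 and Itgb8), the comparison of the ends 12 (with Col25a1, Col26a1, Col6a3 and Itgb8 added), the slope 15 (with Col4a5) and the F test 11 (with Col6a3). Shares of all genes are not given for the block, nor for tests other than the slope on leaving out arrays. Such counts are therefore no result about the members. Sdc2 was gained (adjusted p = 0.0411), and the block changed no other call named here.

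On leaving out 1 array, log2 slopes per part ran from -0.0944 to 0.0238 for Col4a1, from -0.0876 to 0.0325 for Col4a2 and from -0.0748 to 0.152 for Lama1, and without both arrays of part 6 they were 0.00117, 0.0171 and -0.0555. In parts 3 to 6 alone, Col1a2 (0.0715), Itga5 (0.0600) and Itgb8 (0.301) had positive slopes and Col4a6 (-0.0603) a negative one. Of these, Col1a2 was called over all parts. These fits hold fewer arrays, and the cause was otherwise not tested. Dim members near the array median, such as Col1a1, Col3a1, Col6a1, Col6a3 and Col26a1, lost calls in several alternatives.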
